A study of Zea mays with 48 samples.

Results

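A set of 117 maize genes was above both parents in both F1 hybrids of the study when no spider mites were present. A gene entered the set when its mean level in uninfested F1 leaves was at least 1 CPM (counts per M gene counts of the library) and at least 1.5 times the mean of each uninfested parent, in the F1 of B73 and B96 and again in the F1 of B73 and B75. The table has 46272 gene features, of which 44146 have Zm identifiers and could enter. In the F1 with B96 742 features met the rule and in the F1 with B75 422 did, so the 117 made up 15.8% of the first list and 27.7% of the second. Below both parents by the same factor were 129 features in F1 B96, 241 in F1 B75 and 31 in both.

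Maize hybrids are grown for heterosis, the greater vigour of an F1 over its inbred parents. At most genes an F1 has a transcript level near the mean of its parents, and a level above both is called overdominant or transgressive expression. Spider mites pierce single leaf cells and empty them, and feeding sets off a broad transcriptional response in the leaf.

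B73 is the inbred of the maize reference genome, while B96 and B75 are other inbreds, known for resisting spider mites. Each of 2 experiments held an F1, its other inbred parent (B96 or B75) and its own B73 plants, with and without the two-spotted spider mite Tetranychus urticae, in groups of 4 libraries. The 12 groups were F1 B96 infested and control, B96 infested and control, B73 replicates 1 to 4 infested and control, F1 B75 infested and control, B75 infested and control, and B73 replicates 5 to 8 infested and control. Sections of leaf 4 on plants aged 22 days were fenced with a wax barrier, and the infested ones received 200 adult females for 24 hours. Libraries are labelled biological replicates with no word on the number of plants per library, so p-values reflect only how these samples varied.

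Depth was 12.5 to 20.9 M gene counts per library in control leaves and 9.98 to 16.6 M in infested leaves. Every line was counted against the genome of B73, so reads lost to sequence differences and a lower transcript level in B96, B75 or an F1 cannot be told apart. Raw library totals, which the rule used, placed the median of all tested genes 0.30 higher on the log2 scale in control F1 B96 than in control B96, against 0.05 under TMM scaling. The same median in infested leaves was 0.20 on raw totals and -0.00 under TMM. In the other pairs of an F1 and a parent both scalings differed by less than 0.1. The files do not pair the identifiers with gene names, and the reference table of a later assembly matched 0 of the 117, so names, functions, positions and tissue markers are not given.

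The genes were chosen by their mean CPM in uninfested leaves, so values there are given as a description with no test. The 117 genes had a median F1 level of 6.78 CPM in F1 B96 and 6.89 CPM in F1 B75. The lowest mean was 1.05 CPM in F1 B96 and 1.06 CPM in F1 B75. The highest was 1323 CPM in F1 B96 and 2137 CPM in F1 B75, both of the identifier Zm00001d044495. The number of genes at 10 CPM or more was 41 in F1 B96 and 49 in F1 B75, and 10 and 9 of them reached 100 CPM. No gene was at 0 in all 4 libraries of any group.

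The ratio of control means had a median of 2.49 for F1 B96 over B96, 1.95 for F1 B96 over B73, 1.92 for F1 B75 over B75 and 2.00 for F1 B75 over B73. Most genes sat close to the threshold, since the smallest of a gene's 4 ratios had a median of 1.67 and an upper quartile of 1.82. Just inside it were Zm00001d051681, with a smallest ratio of 1.50024, and Zm00001d007045, with 1.50099. Just outside it were Zm00001d033160, with 1.49924, and Zm00001d043238, with 1.49906. At a factor of 2 the list had 14 genes, and with a margin of 25% over both parents it had 466.

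Single control libraries overlapped for nearly all of these genes. Every control F1 B96 library was above every control library of both parents for 11 of the 117, against 1.43% of all Zm features. The corresponding number was 27 in the B75 cross (0.659% of all) and 2 in both crosses (0.0317% of all), Zm00001d012569 and, chosen here after its values were seen, Zm00001d044504. The list also moved with single libraries. Without control F1 B96 replicate 3 the rule gave 53 genes, 52 of them among the 117, and without control F1 B75 replicate 2 it gave 77. Leaving out any other control library gave 87 to 165 genes. With TMM-scaled library sizes the list fell to 77 genes, all among the 117.

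**Figure D1:**
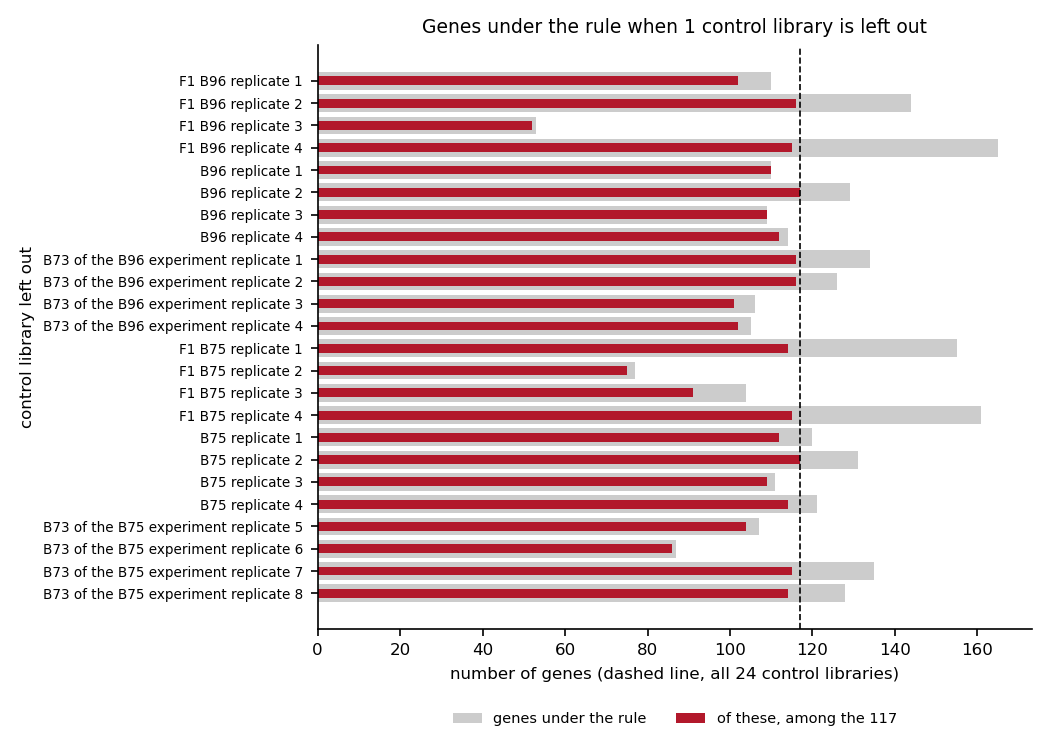
Number of genes that meet the rule when 1 of the 24 control libraries is left out (grey bars) and how many of them are among the 117 (red bars), with the library named on the vertical axis. The shortest bar, 53 genes, is that without F1 B96 replicate 3, and the longest, 165 genes, is that without F1 B96 replicate 4.

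The 6 genes with the widest margin in control leaves ranged from rare to abundant transcripts. Zm00001d045519 had 220, 129, 253 and 63.6 CPM in control F1 B96, 56.5, 122, 61.8 and 35.2 CPM in control B96, and 66.3, 57, 28.7 and 12.6 CPM in control B73. It had 150, 274, 249 and 142 CPM in control F1 B75, 24.9, 63.8, 50.1 and 26.2 CPM in control B75, and 37.7, 24.7, 103 and 126 CPM in control B73. The F1 B75 libraries lay above all of their parents' libraries, whereas 1 F1 B96 library, replicate 4, lay within the range of its parents. Its smallest ratio was 2.42.

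Zm00001d051877 rested on fewer libraries. It had 1.3, 0.921, 9.47 and 0.991 CPM in control F1 B96, where replicate 3 was far above the others, against 2.51, 0.643, 0.531 and 0.416 CPM in control B73 and at most 0.119 CPM in control B96. Its smallest ratio was 3.02, the largest of the 117. Replicate 3 was also the highest control F1 B96 library for the other 5 of these genes. They were Zm00001d025862 (0.99, 1.23, 3.13 and 1.3 CPM), Zm00001d002905 (3.22, 2.03, 4.8 and 0.805 CPM), Zm00001d045519, Zm00001d009567 (48.2, 35, 70.6 and 15.7 CPM) and Zm00001d005661 (4.89, 0.983, 10.7 and 0.681 CPM). Their smallest ratios were 2.65, 2.63, 2.42, 2.30 and 2.22.

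Over all 117 genes, the mean log2 deviation of control F1 B96 replicate 3 from its group was 0.67 and that of replicate 4 was -0.70. In control F1 B75 the deviation of replicate 2 was 0.40 and that of replicate 4 was -0.37. These libraries took part in the rule, so no shared variation of the genes is read from their deviations. The part of these differences between libraries in the choice of the genes was measured only by leaving libraries out, as above.

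The infested libraries did not enter the rule, so the question of whether an F1 exceeded its parents could be tested there. All 117 genes passed the filter on low counts in both fits, but 6 passed beside B96 and 2 beside B75 only because their F1 libraries were counted, so calls of those genes carry no weight. The 6 were Zm00001d008399, Zm00001d010515, Zm00001d012569, Zm00001d025862, Zm00001d049932 and Zm00001d051877, and Zm00001d025862 and Zm00001d049932 were also the 2.

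Against infested B73, 81 of the 117 genes were higher in infested F1 B96 and 0 were lower, at an adjusted p under 0.05 in edgeR's quasi-likelihood test with Benjamini-Hochberg adjustment over 22569 genes. Of all genes tested, 18.6% were higher and 16.4% were lower in that comparison. Without the 6 genes the count was 77 of 111 higher. Of the 117, 115 had a higher mean CPM in infested F1 B96 than in infested B73, against 56.9% of all tested genes. The median log2 fold change of the 117 was 1.17, with quartiles of 0.82 and 1.54, and that of all tested genes was -0.02. At an unadjusted p under 0.05 and in DESeq2 the number lower was also 0.

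The B75 cross gave a smaller count in the same direction. In infested F1 B75, 50 of the 117 genes were higher than in infested B73 and 0 were lower, where 15.4% and 10.4% of 22572 tested genes were. The number lower was 2 at an unadjusted p under 0.05, 0 in DESeq2 and 0 to 2 over all alternatives, and without the 2 genes named above the count higher was 50 of 115. The median log2 fold change was 0.70 for the 117 and 0.00 for all tested genes. In both experiments together, 40 of the 117 were higher in the infested F1 than in infested B73, against 7.01% of the 21539 genes tested in both. Every infested F1 B96 library was above every infested B73 library for 58 of the 117 (10.4% of all Zm features), and the same held for 37 in the B75 cross (8.49% of all). Against the other inbred parent these counts were 23 for B96 (16.0% of all Zm features) and 29 for B75 (11.6% of all). Shares of Zm features, here and elsewhere, include many features that did not pass the low-count filter.

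Against the other inbred parent, the share of the 117 called higher was near that of all tested genes in both crosses. The share called lower was smaller than that of all tested genes. In infested F1 B96, 25 of the 117 genes (21.4%) were higher than in infested B96 and 15 (12.8%) were lower, against 23% and 20.1% of all tested genes. Without the 6 genes that passed the filter only with their F1 libraries, 21 of 111 were higher and 15 were lower. Leaving out infested F1 B96 replicate 1 brought the number lower to 7, and leaving out infested B96 replicate 3 brought it to 8. In infested F1 B75, 24 genes (20.5%) were higher than in infested B75 and 13 (11.1%) were lower, where 17.8% and 16.3% of all tested genes were. Without the 2 such genes of that fit, the counts were 24 and 13 of 115. The number lower was 8 without infested F1 B75 replicate 2, 6 without its replicate 4 and 5 without infested B75 replicate 1.

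The median log2 fold change against the other inbred parent was 0.19 for the 117 genes in infested F1 B96, with quartiles of -0.49 and 0.87, and -0.01 for all tested genes. Without the 6 genes it was 0.08. In the B75 cross it was -0.01 for the 117, with quartiles of -0.41 and 0.66, and 0.01 for all tested genes. In both experiments together 10 of the 117 (8.55%) were higher in the F1 than in the other inbred, against 10.2% of all tested genes. In both, 6 (5.13%) were lower, against 6.86% of all.

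**Figure D2:**
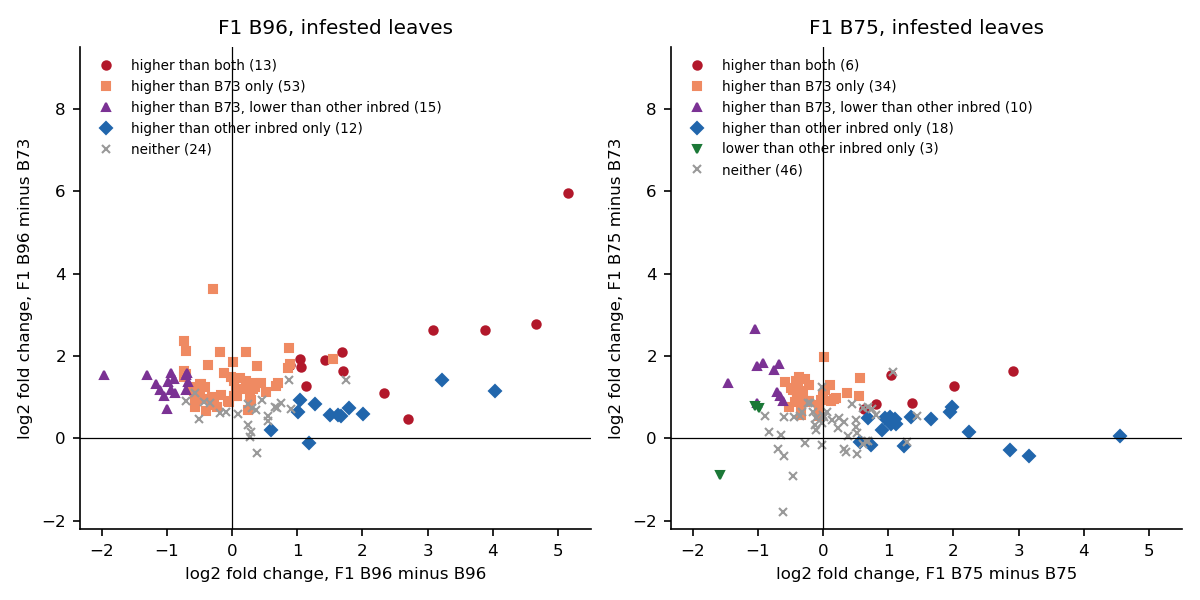
Each of the 117 genes in infested leaves, with the log2 fold change of the F1 minus its other inbred parent on the horizontal axis and of the F1 minus B73 on the vertical axis, for F1 B96 (left) and F1 B75 (right). Colours and shapes give the calls at an adjusted p under 0.05, with the number of genes, and the genes lie mostly above the horizontal zero line but on both sides of the vertical one.

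Taking both parents at once, 13 of the 117 genes were above both in infested F1 B96, against 1.59% of all tested genes, and 8 were so without infested F1 B96 replicate 3. Among the 111 that passed the filter without the F1 libraries the number was 10. In infested F1 B75 6 genes were above both parents, against 0.775% of all tested genes. In both infested F1s the number was 2, against 0.121% of all, but 1 of them was Zm00001d012569, which entered the B96 fit only through its F1 libraries. Among the 111 that passed both filters without the F1 libraries it was 1, Zm00001d009908. The 2 also became 1 without infested F1 B96 replicate 3, without its replicate 4 and without infested B96 replicate 2. Of the 117, 0 were below both parents in infested F1 B96 (1.83% of all tested genes) and 0 in infested F1 B75 (0.368% of all), and both numbers were also 0 at unadjusted p-values under 0.05 and in DESeq2.

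Relative to their parents, the infested F1s took several positions at these genes. In infested F1 B96, 53 genes were higher than B73 and not called against B96 (9% of all tested genes), 15 were higher than B73 and lower than B96 (8.01% of all), 12 were higher than B96 alone (13.5% of all), 0 were lower than B96 alone (10.3% of all) and 24 were called against neither parent (41.1% of all). In infested F1 B75 the corresponding numbers were 34 (7.88% of all), 10 (6.78% of all), 18 (10.8% of all) and 46 (54.2% of all), and 3 were lower than B75 alone (9.19% of all). By mean CPM alone, the infested F1 was the highest of its 3 genotypes for 73 genes in the B96 cross, where 34.9% of all tested genes were, and for 53 in the B75 cross, where 22.4% were. The F1 mean lay between those of its parents for 44 genes in the B96 cross (53.6% of all) and for 58 in the B75 cross (62% of all). These means use raw library totals, on which 66.4% of all tested genes and 75 of the 117 were higher in infested F1 B96 than in infested B96.

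The rule itself, applied to infested means, was met by 37 of the 117 genes in F1 B96 (1.52% of Zm features), by 14 in F1 B75 (0.485% of Zm features) and by 9 in both (0.147% of Zm features). These counts and the next use raw totals, which lift infested F1 B96 over infested B96 by 0.20 on the log2 scale at the median of all tested genes. Every infested F1 library was above every infested library of both parents for 12 genes in the B96 cross (1.55% of Zm features), for 8 in the B75 cross (0.596%) and for 1 in both (0.0544%).

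That 1 gene was Zm00001d012569, a rare transcript. It had 1.84, 2.04, 2.5 and 2.28 CPM in infested F1 B96, 0.24, 0.456, 0.627 and 0.162 CPM in infested B96, and 0.486, 0.775, 1.47 and 1.07 CPM in infested B73. Across the other experiment it had 4.07, 2.69, 3.87 and 4.28 CPM in infested F1 B75, 0.567, 0.518, 0.263 and 0.511 CPM in infested B75, and 0.802, 1.46, 1.2 and 1.27 CPM in infested B73. All 8 F1 libraries lay above all libraries of their parents. The log2 fold changes of F1 B75 under TMM scaling were 2.92 ± 0.29 (SE) against B75 and 1.64 ± 0.27 against B73, with edgeR adjusted p-values of 5.7e-08 and 5.1e-05. Those of F1 B96, where the gene passed the filter only with its F1 libraries, were 2.32 ± 0.34 against B96 and 1.11 ± 0.30 against B73 and are given as values. In control leaves it averaged 1.15 ± 0.29 CPM in F1 B96, 0.131 ± 0.061 in B96 and 0.341 ± 0.034 in B73, and 1.39 ± 0.23 CPM in F1 B75, 0.277 ± 0.106 in B75 and 0.661 ± 0.332 in B73 (SD, n = 4 each).

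Zm00001d009908, an abundant gene, was called higher in all 4 infested comparisons. Among the 111 genes that passed both filters without the F1 libraries, it was the only one. It had 166, 408, 531 and 492 CPM in infested F1 B96, 199, 105, 196 and 157 CPM in infested B96, and 43.2, 121, 160 and 129 CPM in infested B73. Replicate 1 of F1 B96 lay within the range of B96 and just above the highest B73 library, and the other 3 F1 libraries were above every parent library. The log2 fold change was 1.05 ± 0.35 against B96 (edgeR adjusted p = 0.02) and 1.74 ± 0.36 against B73 (edgeR adjusted p = 0.00067). The call against B96 was lost without F1 B96 replicate 3, without its replicate 4 or without B96 replicate 2, with an adjusted p between 0.0034 and 0.07 over all alternatives.

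Zm00001d009908 in the B75 experiment had 407, 403, 378 and 314 CPM in infested F1 B75, 137, 159, 120 and 143 CPM in infested B75, and 166, 210, 299 and 163 CPM in infested B73. The F1 libraries were above all of them, by log2 fold changes of 1.36 ± 0.21 against B75 and 0.87 ± 0.21 against B73 (edgeR adjusted p = 2.4e-05 and 0.0026). In control leaves its means were 47 ± 24.8 CPM in F1 B96, 15.8 ± 4.67 in B96 and 26.9 ± 8.8 in B73. In the control leaves of the B75 cross they were 59.1 ± 20.5 CPM in F1 B75, 31.4 ± 4.25 in B75 and 27.5 ± 10.1 in B73 (SD, n = 4 each).

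**Figure D3:**
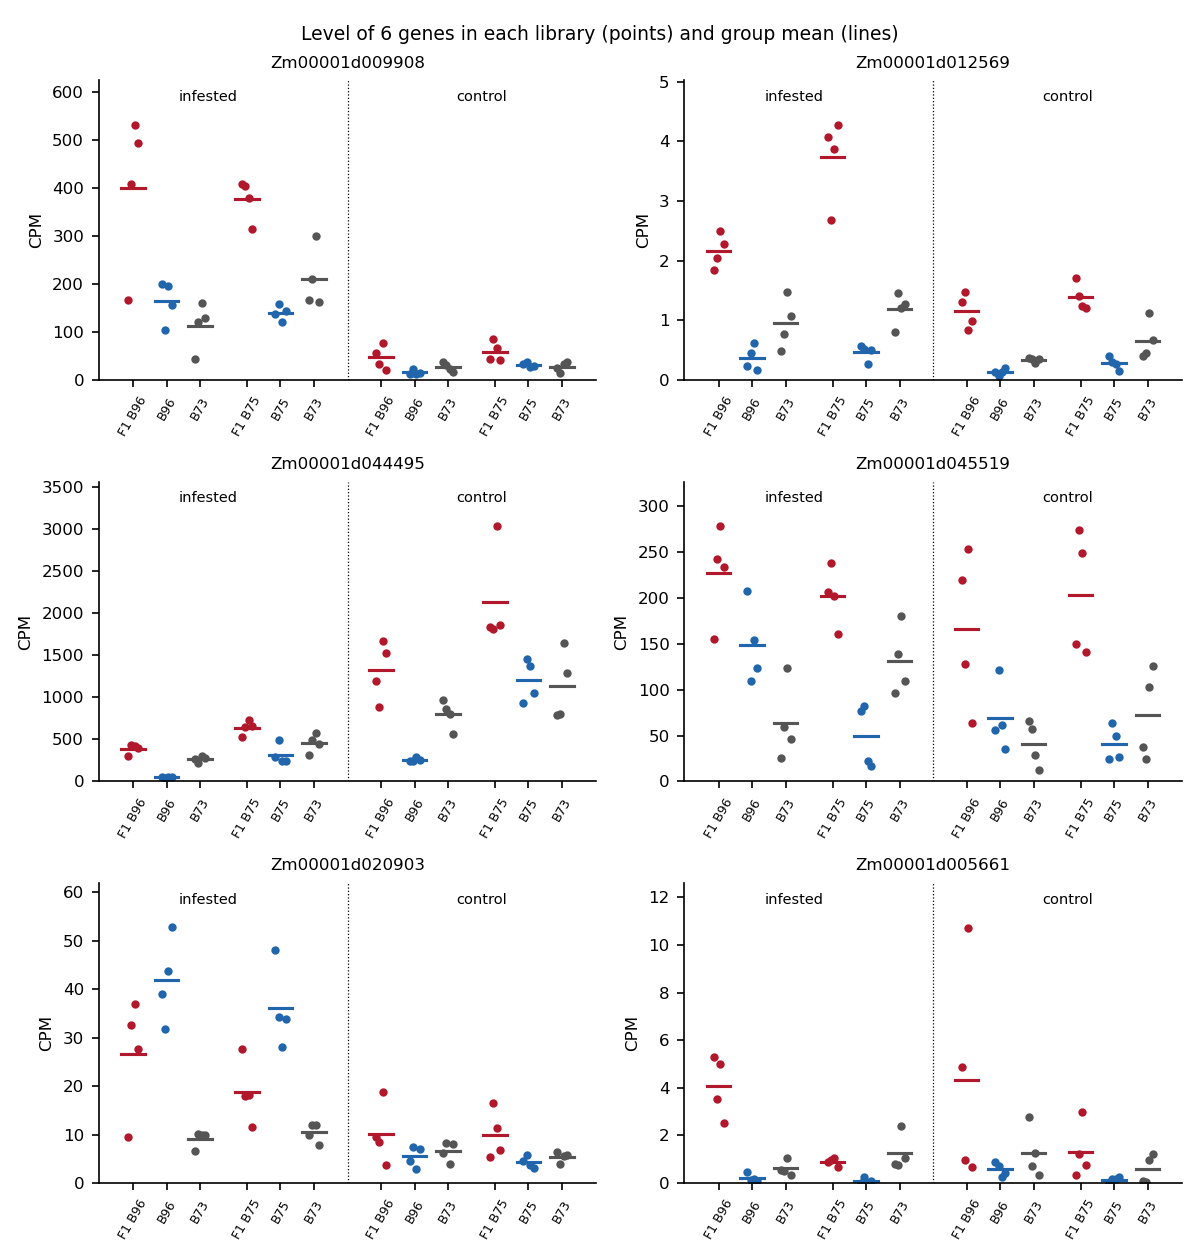
CPM (vertical axes, on raw library totals) of 6 of the 117 genes in each of the 48 libraries, infested groups on the left of each panel and control groups on the right, with F1 libraries in red, B96 or B75 in blue and B73 in grey. For Zm00001d012569 the F1 points lie above all parent points in both infested crosses, whereas for Zm00001d020903 infested B96 and B75 have the highest means.

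The most abundant of the 117, Zm00001d044495, had a lower mean CPM in every infested group than in its control, given as a description. It had 307, 432, 426 and 396 CPM in infested F1 B96, 57.3, 45.7, 49.4 and 52.3 CPM in infested B96, and 273, 215, 300 and 274 CPM in infested B73. Each F1 library was above each parent library, by a log2 fold change of 2.70 ± 0.18 against B96 (edgeR adjusted p = 5.9e-11) and 0.46 ± 0.17 against B73 (edgeR adjusted p = 0.042). The call against B73 was lost in 6 of the fits that left out 1 library, with an adjusted p between 0.014 and 0.14 over all alternatives. Those libraries were replicates 2, 3 and 4 of infested F1 B96 and replicates 1, 2 and 4 of infested B73.

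Zm00001d044495 in the B75 experiment had 529, 647, 726 and 662 CPM in infested F1 B75, 286, 494, 239 and 244 CPM in infested B75, and 310, 490, 577 and 452 CPM in infested B73. The F1 libraries lay above those of B75 and overlapped those of B73, and the log2 fold change was 0.95 ± 0.25 against B75 (edgeR adjusted p = 0.0046) and 0.51 ± 0.24 against B73 (edgeR adjusted p = 0.14). Its control means were 1323 ± 350 CPM in F1 B96, 257 ± 23.4 in B96 and 800 ± 168 in B73. They were 2137 ± 601 CPM in F1 B75, 1205 ± 251 in B75 and 1135 ± 413 in B73 (SD, n = 4 each). The response to mites is given as a description, since the control libraries chose the gene. Its log2 fold changes were -1.91 ± 0.18 in F1 B96, -2.52 ± 0.18 in B96 and -1.68 ± 0.18 in B73. In the B75 experiment they were -1.90 ± 0.25 in F1 B75, -2.05 ± 0.25 in B75 and -1.53 ± 0.25 in B73.

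None of the 3 other genes with the highest F1 levels in control leaves was called above both parents in an infested F1. Zm00001d037636 had 223, 364, 366 and 241 CPM in infested F1 B96, 383, 290, 511 and 374 CPM in infested B96, and 86.8, 136, 168 and 84 CPM in infested B73. It was higher in F1 B96 than in B73 by 1.24 ± 0.30 on the log2 scale (edgeR adjusted p = 0.0029) and was -0.62 ± 0.30 against B96 (edgeR adjusted p = 0.1). Zm00001d019149 had nearly the same pattern, with 0.95 ± 0.24 against B73 and -0.44 ± 0.23 against B96 (edgeR adjusted p = 0.003 and 0.14).

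In infested F1 B75 both were again higher than B73, Zm00001d037636 by 0.97 ± 0.22 and Zm00001d019149 by 0.92 ± 0.17 on the log2 scale (edgeR adjusted p = 0.0021 and 0.00025). Neither was called against B75. Zm00001d019936 differed between the crosses, with 251, 207, 218 and 146 CPM in infested F1 B96, 154, 113, 143 and 153 CPM in infested B96, and 56, 99.3, 96.5 and 84.9 CPM in infested B73. It had 153, 126, 147 and 104 CPM in infested F1 B75, 84, 72.7, 80.2 and 65.7 CPM in infested B75, and 142, 142, 175 and 142 CPM in infested B73. The call was against B73 in F1 B96 (1.20 ± 0.26, edgeR adjusted p = 0.00081) and against B75 in F1 B75 (0.73 ± 0.20, edgeR adjusted p = 0.0069), and the difference between the crosses was not tested.

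The 6 genes with the widest control margin also took different positions in infested leaves. Zm00001d045519 averaged 228 ± 51.8 CPM in infested F1 B96, 149 ± 43.1 in infested B96 and 63.5 ± 42.5 in infested B73, and was called only against B73 (1.77 ± 0.45, edgeR adjusted p = 0.0042). In the B75 cross it averaged 202 ± 31.7 CPM in infested F1 B75, 49.8 ± 34.6 in infested B75 and 131 ± 37.4 in infested B73 (SD, n = 4 each), and was called only against B75 (1.95 ± 0.47, edgeR adjusted p = 0.0027). Zm00001d009567 averaged 77.4 ± 23.7 CPM in infested F1 B96, 108 ± 24.2 in infested B96 and 24.7 ± 4.98 in infested B73, and it averaged 82.6 ± 31.8 CPM in infested F1 B75, 91.7 ± 17.5 in infested B75 and 44.9 ± 11.6 in infested B73. It was higher than B73 in both F1s, by 1.56 ± 0.30 and 0.91 ± 0.27 (edgeR adjusted p = 0.00033 and 0.015), and the second call was lost without infested F1 B75 replicate 1 or infested B73 replicate 8, with an adjusted p between 0.0023 and 0.094 over all alternatives.

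Zm00001d005661 had 5.31, 3.54, 4.99 and 2.53 CPM in infested F1 B96, 0.481, 0.13, 0.179 and 0.081 CPM in infested B96, and 0.556, 0.517, 1.03 and 0.357 CPM in infested B73. The F1 libraries were above all parent libraries, by 3.88 ± 0.78 against B96 and 2.63 ± 0.68 against B73 on the log2 scale (edgeR adjusted p = 0.00038 and 0.0046). It had 0.896, 0.949, 1.05 and 0.684 CPM in infested F1 B75, 0, 0.259, 0 and 0.073 CPM in infested B75, and 0.802, 0.766, 2.41 and 1.03 CPM in infested B73, so F1 B75 was above B75 and overlapped B73. The F1 was higher than B75 (3.16 ± 0.96, edgeR adjusted p = 0.013) and was not called against B73 (-0.41 ± 0.65, edgeR adjusted p = 0.7).

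Among the rarer of the 6, Zm00001d002905 had a mean of 5.7 ± 2.98 CPM in infested F1 B96, 8.07 ± 2.84 in infested B96 and 1.9 ± 0.845 in infested B73, with a call against B73 alone (1.49 ± 0.43, edgeR adjusted p = 0.01). It was called against neither parent of F1 B75. Zm00001d025862 averaged 0.672 ± 0.289 CPM in infested F1 B96, 0.181 ± 0.134 in infested B96 and 0.152 ± 0.179 in infested B73. It passed the filter only with its F1 libraries, so no call is read from it. Zm00001d051877 had 0.737, 1.24, 2.42 and 0.422 CPM in infested F1 B96, 0.06, 0, 0.179 and 0 CPM in infested B96, and 0.347, 0.344, 0.517 and 0.802 CPM in infested B73. The F1 libraries lay above those of B96 and overlapped those of B73, and this gene too passed the B96 filter only with its F1 libraries.

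At the other end were the genes with the lowest median log2 fold change over the 4 infested comparisons. Zm00001d020903 had 9.44, 32.6, 36.9 and 27.7 CPM in infested F1 B96, 39.1, 31.9, 43.8 and 52.8 CPM in infested B96, and 6.6, 10.2, 9.92 and 9.98 CPM in infested B73. It had 27.6, 17.9, 18.2 and 11.5 CPM in infested F1 B75, 48.2, 34.4, 28.2 and 33.9 CPM in infested B75, and 9.98, 12, 11.9 and 7.84 CPM in infested B73. The F1 mean was between those of its parents in both crosses, and F1 B96 replicate 1 lay within the range of B73.

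Zm00001d020903 was lower in F1 B75 than in B75 by a log2 fold change of -1.01 ± 0.27 (edgeR adjusted p = 0.0053) and lower in F1 B96 than in B96 by -0.89 ± 0.34 (edgeR adjusted p = 0.041). The second call was lost in 5 of the fits that left out 1 library, with an adjusted p between 0.024 and 0.12 over all alternatives. Those libraries were infested F1 B96 replicates 1 and 4 and infested B96 replicates 1, 3 and 4. Against B73 it was higher in F1 B96 by 1.44 ± 0.37 and in F1 B75 by 0.87 ± 0.28 (edgeR adjusted p = 0.0037 and 0.023). The call in F1 B75 was lost without infested F1 B75 replicate 1 and without replicates 5 or 8 of infested B73, with an adjusted p between 0.0074 and 0.13.

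Of the other 3, Zm00001d020032 averaged 2.28 ± 0.18 CPM in infested F1 B96, 0.851 ± 0.395 in infested B96 and 2.37 ± 1.00 in infested B73 (SD, n = 4 each), with a call against B96 (1.17 ± 0.40, edgeR adjusted p = 0.021). That call was lost without infested B96 replicate 1 or 3. Its 3 infested means in the B75 cross lay between 2.66 and 3.13 CPM and no call was made. Zm00001d012887 and Zm00001d013732 were called against neither parent in either cross, at infested F1 means of 1.37 ± 0.506 and 1.36 ± 0.277 CPM in F1 B96 and 0.773 ± 0.363 and 0.736 ± 0.182 CPM in F1 B75.

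The pair just inside the threshold differed in infested F1 B96. Zm00001d007045 averaged 12.4 ± 5.01 CPM in infested F1 B96, 20.1 ± 7.55 in infested B96 and 5.14 ± 1.03 in infested B73, and 12.8 ± 3.43 CPM in infested F1 B75, 20.4 ± 5.06 in infested B75 and 4.05 ± 0.941 in infested B73. It was above B73 and below the other inbred parent in both crosses (edgeR adjusted p between 7.4e-05 and 0.035), and all but the call against B73 in F1 B75 were lost when certain single libraries were left out. Those were replicates 1 to 3 of infested F1 B96, replicates 2 and 4 of infested F1 B75, replicates 1, 3 and 4 of infested B96, replicates 1 and 3 of infested B75 and replicate 1 of infested B73.

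Zm00001d051681 averaged 3.25 ± 0.608 CPM in infested F1 B96, 0.821 ± 0.841 in infested B96 and 0.71 ± 0.43 in infested B73, and was above both (1.69 ± 0.51 and 2.11 ± 0.53 on the log2 scale, edgeR adjusted p = 0.01 and 0.0038). In the B75 cross it averaged 1.07 ± 0.395 CPM in infested F1 B75, 0.0367 ± 0.0428 in infested B75 and 1.06 ± 0.484 in infested B73 (SD, n = 4 each). It was called against B75 (edgeR adjusted p = 3.4e-05, with no fold given because B75 held so few counts) and not against B73 (0.06 ± 0.42, edgeR adjusted p = 0.94).

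The inbred parents themselves differed at these genes under mites, in a comparison added after the data were seen. Of the 117 genes, 67 were higher in infested B96 than in infested B73 and 7 were lower, against 28.2% and 29.6% of all tested genes, with a median log2 fold change of 0.97 for the 117 and -0.01 for all. The number lower was 4 without infested B96 replicate 2 or 3 or without infested B73 replicate 3. In infested B75, 51 genes were higher than in infested B73 and 19 were lower, against 27.6% and 25.8% of all tested genes, with medians of 0.59 and 0.01. The number lower was 12 without infested B75 replicate 4. Higher than infested B73 in both other inbreds were 39 genes, against 12.6% of all, and lower in both were 2, against 14.8%. These comparisons use the same infested B73 libraries as those of the F1s.

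In control leaves, where the levels of the parents were part of the rule, the median log2 fold change between the parents was -0.08 for B96 minus B73 and -0.00 for B75 minus B73, given as a description.

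**Figure D4:**
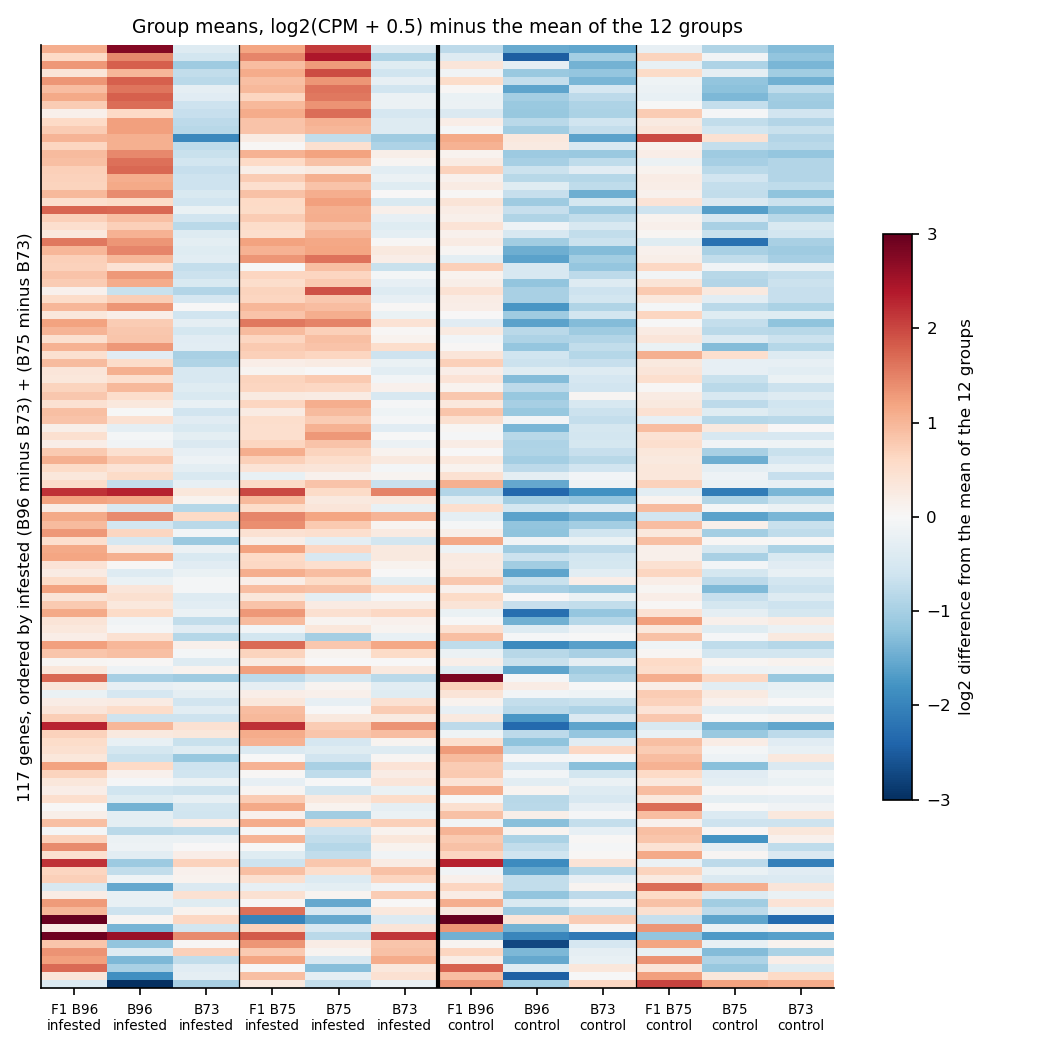
Mean level of each of the 117 genes (rows) in the 12 groups (columns, infested on the left of the thick line and control on the right), as log2(CPM + 0.5) minus the mean of the gene's 12 groups, with colours ending at -3 and 3. Rows are ordered by the infested B96 minus B73 and B75 minus B73 differences, so most genes at the top have infested B96 and B75 at or above the infested F1s, and the 6 control columns show the F1s above their parents, as the rule required.

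The mite response of these genes (infested minus control) rests on the control libraries that chose them, high in the F1s and low in the parents, so it is given as a description with no test and nothing is read from it. The median log2 fold changes were 0.34 in F1 B96, 1.32 in B96, 0.10 in B73, 0.07 in F1 B75, 1.15 in B75 and 0.43 in B73 of the B75 experiment.

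Taken as a typical level, the median CPM of the 117 genes in a library averaged 8.39 ± 2.09 in infested F1 B96, 8.04 ± 1.89 in infested B96 and 3.79 ± 0.373 in infested B73. The 4 F1 libraries were above all B73 libraries and overlapped those of B96. In the B75 experiment it averaged 8.98 ± 1.75 in infested F1 B75, 7.85 ± 1.66 in infested B75 and 4.83 ± 1.34 in infested B73 (SD, n = 4 each), where the F1 overlapped both parents. In control leaves, which chose the genes, it averaged 6.44 ± 3.30 in F1 B96, 2.68 ± 0.380 in B96 and 2.93 ± 0.917 in B73, and 6.89 ± 2.39 in F1 B75, 3.24 ± 0.745 in B75 and 3.25 ± 1.14 in B73. All these levels use raw library totals. Those totals placed the median of all tested genes 0.20 higher on the log2 scale in infested F1 B96 than in infested B96, against -0.00 under TMM. The order of infested F1 B96 and infested B96 is therefore not read as a difference.

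**Figure D5:**
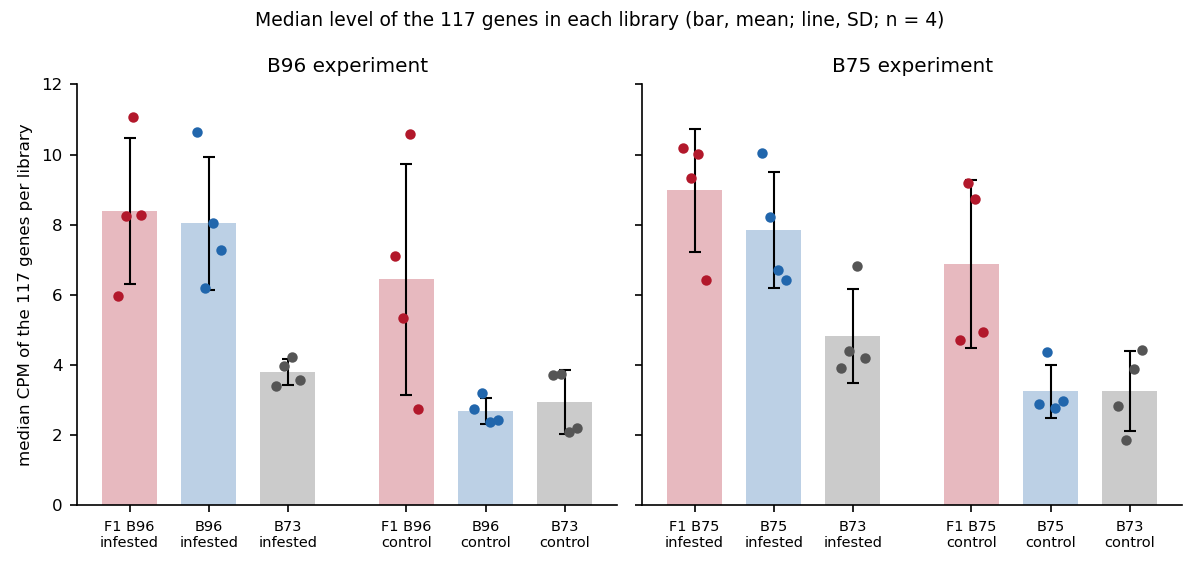
Median CPM of the 117 genes in each library (points, vertical axis), with bars for the mean and lines for the SD of the 4 libraries of a group, in the B96 experiment (left) and the B75 experiment (right). Infested F1 B96 averages 8.39 and infested B96 8.04, both above infested B73 at 3.79, while in control leaves only the F1 groups exceed 6. CPM is on raw library totals, so the order of infested F1 B96 and infested B96 is not read as a difference.

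The sum of all 117 genes, also on raw library totals, gave the same order with more weight on 1 transcript. It averaged 4727 ± 789 CPM in infested F1 B96, 3868 ± 700 in infested B96 and 2035 ± 428 in infested B73, and 4884 ± 592 CPM in infested F1 B75, 3728 ± 711 in infested B75 and 3155 ± 710 in infested B73 (SD, n = 4 each). Zm00001d044495 alone made up 1.10% to 54.1% of this sum over the 48 libraries. Without it the infested means were 4337 ± 738 CPM in F1 B96, 3816 ± 697 in B96 and 1770 ± 420 in B73, and 4243 ± 616 CPM in F1 B75, 3412 ± 638 in B75 and 2698 ± 615 in B73. As with the medians, the order of infested F1 B96 and infested B96 is not read as a difference.

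In infested libraries of the same group the 117 genes tended to move together. Over the deviations of the 12 infested libraries of an experiment from their group means, the mean pairwise Pearson correlation was 0.286 for F1 B96 with its parents and 0.410 for F1 B75 with its own. Over all tested genes it was 0.002 and 0.001. In the 12 control libraries it was 0.438 and 0.458, but there the choice of genes used the same libraries. These are descriptions across genes that share libraries. Positive and negative pairs cancel in the mean over all tested genes, and no other set of genes was compared. The correlation is thus not shown to be particular to the 117. The infested libraries with the largest mean deviations over the 117 were replicate 1 in F1 B96 (-0.38), replicate 2 in B96 (-0.34) and replicate 4 in F1 B75 (-0.39).

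The genes that met the rule in 1 F1 alone gave the nearest comparison. Of those above both parents in control F1 B96 only, 624 were tested and 366 (58.7%) were higher in infested F1 B96 than in infested B73, 158 (25.3%) were higher than in infested B96 and 82 (13.1%) were above both. Of those above both parents in control F1 B75 only, 304 were tested, and 123 (40.5%) were higher in infested F1 B75 than in infested B73, 61 (20.1%) were higher than in infested B75 and 17 (5.59%) were above both. The corresponding shares of the 117 were 69.2%, 21.4% and 11.1% in F1 B96, and 42.7%, 20.5% and 5.13% in F1 B75. Without the genes that passed the filter only with their F1 libraries, the counts were 77, 21 and 10 of 111 in F1 B96. In F1 B75 they were 50, 24 and 6 of 115. Such genes were not taken out of the 2 lists of 1 F1 alone, so their shares are given as a description. The difference between the lists was not tested.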

How the data were processed

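Per the labels' protocols, leaf RNA went into stranded libraries after poly(A) selection. Per the submitters' processing notes, STAR 2.5.3a and HTSeq 0.9.1 were used with the genome build B73 RefGen_v4. HTSeq's options were not given in the sources used here. The authors' deposited table gives raw counts, 1 for each feature in each library, and 5 summary lines for reads not assigned to a gene, with a mean of 17.6% of reads (12.7% to 28.0%), which stayed out of library sizes and tests. Near-identical gene copies lose reads to those lines, so their levels are uncertain. No pair of libraries of a group looked like 1 library deposited more than once (lowest chi-square per gene 4.82 over 72 pairs).

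CPM was computed as counts per M gene counts of the library, the scale of the rule. At these depths 1 CPM stands for 9.98 to 20.9 counts, and the low values carry that counting error. edgeR 4.0.16 in R 4.3.3 fitted the 2 experiments separately, each with its 24 libraries as group means, filterByExpr at a minimum count of 10, TMM scaling, the quasi-likelihood test and Benjamini-Hochberg adjustment over all genes of the fit. A gene with an adjusted p under 0.05 is called higher or lower. Fold changes are TMM-scaled log2 values ± SE. The B73 libraries followed the design text, which assigns replicates 1 to 4 to B96 and 5 to 8 to B75.

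The genes and the tests were chosen with earlier results of these data known. Named genes were, by rule, the 6 with the largest smallest control ratio, up to 6 called higher in all 4 infested comparisons (2 met this), the 4 with the highest F1 control level, the 4 with the lowest median infested log2 fold change and the pairs next to the threshold. Of the 2 called higher in all 4, Zm00001d012569 passed the B96 filter only with its F1 libraries. A category for genes above both parents in 1 infested F1 and below a parent in the other had 0 members. Gene lists by function gave no value, because 0 of the 44146 Zm features were matched to names. Alternatives were RLE scaling, DESeq2 1.42.0, no filter, infested libraries alone, runs of 6 sequencing numbers as blocks (the labels name randomized blocks but not which number marks one), leaving out each library, and other scalings, thresholds and libraries for the rule. The infested comparison of the inbreds and the calls with 3 other choices of genes were added after the data were seen. The fits were also run on simulated counts, with the same dispersion for every gene and changes in infested F1 libraries only. Those counts had no blocks and no differences between the parents, so they say nothing about error rates in these data.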

Additional observations from a re-analysis of the deposited data

Results flagged for a closer look

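A value was picked out here when the highest or lowest of the 4 libraries of a group stood apart from the other 3 by more than Dixon's critical share of the whole range. Over 228 groups of 4 libraries, 20 values did, and chance alone picks about 1 in 20 groups. None of them was given an explanation.

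Control F1 B96 replicate 3 was high for Zm00001d051877 (9.467 CPM, the other libraries at 0.921 to 1.30) and for Zm00001d025862 (3.132 CPM, the others at 0.99 to 1.30). Infested F1 B96 replicate 1 was high for Zm00001d025862, with 1.106 CPM. In F1 B75, control replicate 3 was high for Zm00001d044495, with 3038 CPM. Infested F1 B75 replicate 4 was low for Zm00001d019149 (255.5 CPM), for Zm00001d037636 (234.4 CPM) and for the sum of the 117 genes (3997 CPM).

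Control B96 replicate 2 was high for Zm00001d009567 (26.73 CPM), for Zm00001d009908 (22.81 CPM), for Zm00001d037636 (135.8 CPM) and for the sum of the 117 genes (1715 CPM). Infested B96 replicate 2 was low for Zm00001d009567, with 71.78 CPM. Control B75 replicate 2 was high for Zm00001d025862 (0.993 CPM) and for Zm00001d007045 (3.59 CPM).

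In B73 of the B96 experiment, control replicate 1 was high for Zm00001d051877 (2.506 CPM), control replicate 2 was high for Zm00001d012887 (1.345 CPM) and infested replicate 1 was low for Zm00001d020903 (6.602 CPM). In B73 of the B75 experiment, infested replicate 7 was high for Zm00001d005661 (2.406 CPM) and for Zm00001d019936 (175.3 CPM), and control replicate 6 was low for Zm00001d013732 (0.5622 CPM).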

How the results depend on the processing

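The list of 117 moved most: 77 genes met the rule on TMM-scaled CPM, 68 on DESeq2 size factors, 14 at a factor of 2, 466 with a margin of 25%, 65 at 5 CPM and 2 without overlap of libraries. Leaving out 1 control library gave 53 to 165. In infested leaves, fits without 1 library gave 8 to 15 genes above both parents in F1 B96, 4 to 7 in F1 B75 and 1 to 3 in both. They gave 68 to 85 higher and 0 to 0 lower for F1 B96 against B73, 17 to 26 and 7 to 19 against B96, 34 to 55 and 0 to 1 for F1 B75 against B73, and 17 to 28 and 5 to 14 against B75. For the inbreds against B73 they gave 60 to 70 higher and 4 to 8 lower in B96, and 43 to 53 and 12 to 20 in B75. For F1 B75 against B73 the number lower was 1 with RLE scaling and 1 with infested libraries alone. Of the genes chosen on group medians 9.57% were lower in infested B96 than in B73, and of those chosen on TMM-scaled CPM 10.4% were lower in infested B75. The cause was not tested. The other counts stayed within 1.5 times under RLE scaling, DESeq2, no filter on low counts, infested libraries alone and other choices of the genes, and no log2 fold change of a named gene that was called turned its direction. The labels describe a randomized block design without saying which number marks a block. Sequencing numbers in the labels fall into runs of 6, each with 1 library of every group of an experiment, which is the layout of complete blocks. Libraries of a run share a replicate number, except that B73 replicates 5 to 8 stand beside replicates 1 to 4 of B75 and F1 B75. Libraries of the same run correlated above 0.1 in 34 of 60 pairs in each experiment (lowest -0.229 and -0.328, median 0.146 and 0.129, against -0.0510 and -0.0339 between runs). With their own run correlated best 12 and 13 of 24 libraries, although each had more libraries of other runs to match. The median was higher within a run in both experiments. All SEs, p-values and main calls given above come from fits without a block and do not take the runs into account. With the runs as blocks the number lower for F1 B75 against B73 was 2, and genes above both parents numbered 14 in F1 B96, 7 in F1 B75 and 2 in both. Other counts and the values of single genes are not given from the fits with blocks. The depth of 9.98 to 20.9 M counts limits the genes near 1 CPM, where a group can hold a few counts.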

Other observations

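Some of the 117 genes varied between libraries of 1 group by more than the groups differed, and the following were singled out after their values were seen. Zm00001d039933 had 257, 73.5, 65 and 5.23 CPM in infested F1 B96, 16.1, 11.7, 8.15 and 4.21 CPM in infested B96, and 23.7, 18, 13.9 and 4.81 CPM in infested B73. In control leaves it had 112, 98.1, 226 and 2.04 CPM in F1 B96, 10.9, 21.5, 12 and 6.73 CPM in B96, and 34.2, 22.3, 9.37 and 1.49 CPM in B73. Replicate 4 was the lowest library in all 6 groups of that experiment. In the B75 experiment its levels were lower, with means of 2.04 ± 0.989 CPM in infested F1 B75, 3 ± 1.89 in infested B75 and 7.19 ± 3.11 in infested B73 (SD, n = 4 each).

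Zm00001d010515 had 9.07, 2.3, 1.64 and 0 CPM in infested F1 B96, with means of 0.0718 ± 0.067 CPM in infested B96 and 0.0446 ± 0.0891 in infested B73 (SD, n = 4 each). In control leaves it had 7.61, 6.2, 16.1 and 0.248 CPM in F1 B96, with means of 0.602 ± 0.22 CPM in B96 and 0.106 ± 0.175 in B73. In infested F1 B96 replicate 4 had no count, within the range of the parents.

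Zm00001d013276 was lower in every infested group than in its control, as was the more abundant Zm00001d044495. It averaged 68.1 ± 10.4 CPM in infested F1 B96, 49.3 ± 10.2 in infested B96 and 39.9 ± 12.2 in infested B73, and 65.8 ± 7.02 CPM in infested F1 B75, 28.8 ± 1.62 in infested B75 and 52.3 ± 12 in infested B73 (SD, n = 4 each). Its control means were 112 ± 22.6 CPM in F1 B96, 67.8 ± 8.23 in B96, 58.7 ± 5.97 in B73, 115 ± 23.6 in F1 B75, 45.6 ± 7.15 in B75 and 74.8 ± 16.5 in B73 of the B75 experiment.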
